A study of Rattus norvegicus with 63 samples.

Results

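Arc, Homer1, Bdnf, Dusp1, Dusp6, Nptx2, Ptgs2 and Gadd45b encode proteins that neurons make soon after they fire, and some of these act at or near the synapse. They were followed across the prefrontal cortex (PFC) and the striatum of rats (Wistar, male) after self-administration of a psychostimulant or of saline. A gene was measured where a probe set of the Affymetrix rat array carried its symbol and no other, and the probe set of the highest mean log2 signal stood for the gene. This gave 7 of the 8 genes among 14218 named genes, and Nptx2 was not analysed here.

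The pretreated cohort received methamphetamine, amphetamine or methylphenidate at 5 mg/kg by intraperitoneal injection, 2 times a day for 7 days, starting at 6 weeks of age. These rats were then conditioned in a place preference test with the same stimulant at 5 mg/kg and self-administered it. The naive cohort received saline injections instead, and was conditioned with methamphetamine or amphetamine at 5 or 1.25 mg/kg or with methylphenidate at 5 mg/kg. Infusions held 0.1 mg/kg of methamphetamine or amphetamine, while the methylphenidate infusion is labelled in another unit, 0.25 mg per 0.1 ml. Each cohort had its own saline group, for which the labels give saline at all 3 stages. Brains were taken a day after the last session, and stimulant rats were those with the most robust self-administration. The arrays fell into 20 groups, 31 arrays of PFC and 32 of striatum, with 3 arrays a group except 5 in each naive saline group and 2 for naive methamphetamine 1.25 mg/kg in the PFC. The striatal piece took in the nucleus accumbens and the rostral part of the caudate putamen. The labels speak of pooled RNA but also of about as many rats as arrays, so p-values measure only the spread between these samples. In such tissue, fewer cells of a type and less RNA per cell cannot be told apart.

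When synaptic calcium rises, kinases activate transcription factors such as CREB and SRF. The RNA of activity-induced genes such as these then rises within minutes to hours and decays again. Arc protein binds the endocytic machinery and removes AMPA receptors from the synapse. The short forms of Homer1 compete with the long forms that tie metabotropic glutamate receptors to the postsynaptic scaffold, and BDNF is a secreted growth factor for synapses. Dusp1 and Dusp6 are phosphatases that switch off MAP kinases, Ptgs2 is cyclooxygenase-2, which makes prostaglandins, and Gadd45b takes part in stress signalling and DNA demethylation. Striatal medium spiny neurons make little BDNF themselves and receive it from cortical axons.

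The genes lie, on assembly GRCr8, at chr7:108444959-108448413 (Arc), chr2:26279012-26388279 (Homer1), chr3:116619633-116670212 (Bdnf), chr10:17184853-17187646 (Dusp1), chr7:35979502-35983834 (Dusp6), chr13:64714063-64722320 (Ptgs2) and chr7:9428689-9430991 (Gadd45b). RefSeq promoters were available for 6 of the 7 measured genes, 11 starts in all. The cAMP response element, the site that CREB binds, was searched in the 250 bases before each start, on both strands, as TGACGTCA and as the half-sites TGACG and CGTCA, which the full element also holds. Among 33469 rat promoters 1.59% held the full element and 18.2% a half-site. Of the measured genes only Dusp1 held the full element, and Dusp1 and 1 of the 6 starts of Bdnf held a half-site. The CArG box, the site of SRF, was in 1.5% of all promoters and in none of these 11. Both windows with a match are shown with the matched letters in capitals, read 5′ to 3′ on the plus strand of GRCr8. In Dusp1 the full element begins 124 bases before the start and another half-site 172 bases before it. In Bdnf the half-site begins 35 bases before the start.
Dusp1, chr10:17184603-17184852: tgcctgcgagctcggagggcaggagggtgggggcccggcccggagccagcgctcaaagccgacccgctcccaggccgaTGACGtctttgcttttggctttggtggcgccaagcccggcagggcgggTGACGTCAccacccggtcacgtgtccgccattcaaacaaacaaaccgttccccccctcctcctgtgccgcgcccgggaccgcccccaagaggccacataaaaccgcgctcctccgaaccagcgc
Bdnf, chr3:116637608-116637857: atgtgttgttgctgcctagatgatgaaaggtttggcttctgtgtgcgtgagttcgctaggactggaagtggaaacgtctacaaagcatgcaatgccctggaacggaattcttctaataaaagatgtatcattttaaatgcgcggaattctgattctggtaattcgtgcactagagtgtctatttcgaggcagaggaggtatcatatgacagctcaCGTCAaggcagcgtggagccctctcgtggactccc

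The 63 arrays were scaled by the authors to a common mean, and all values here are log2 of the deposited signal. The naive arrays fell into sets by the signal of BioB, a bacterial RNA spiked in at hybridisation: 23 arrays had a log2 BioB signal of 9.35 to 10.63 and 16 had 5.96 to 6.68. All naive arrays of amphetamine 5 mg/kg and methylphenidate, and saline replicates 4 and 5, were arrays of low BioB signal, and the other naive arrays were arrays of high BioB signal. Pretreated arrays ranged over 9.01 to 10.21. On the 4 saline arrays of low BioB signal Hbb, beta globin of red cells, was at 9.22 to 10.54, against 12.10 to 14.49 on the other naive arrays. Replicate 1 of naive methamphetamine 1.25 mg/kg is labelled striatum but was of cortical profile. It had 10.78 for Slc17a7, the cortical vesicular glutamate transporter, and 7.60 for Drd2, the dopamine D2 receptor, against 6.15 to 9.09 and 11.21 to 12.23 on the other 31 striatal arrays. Its marker means were 9.74 (endothelial), 8.48 (meningeal) and 9.51 (cortical), against 9.78, 8.44 and 9.20 on naive PFC amphetamine 1.25 mg/kg replicate 3. The naive PFC arrays of methamphetamine 1.25 mg/kg had 8.45 and 9.09 for endothelial and 6.85 and 6.89 for meningeal markers. Whether its stimulant label holds was not tested, and the label was kept. The description of 1 striatal saline array names the PFC, but its tissue label is striatum, and the mean of the striatal markers was 11.87 or higher on all 8 striatal saline arrays.

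**Figure D1:**
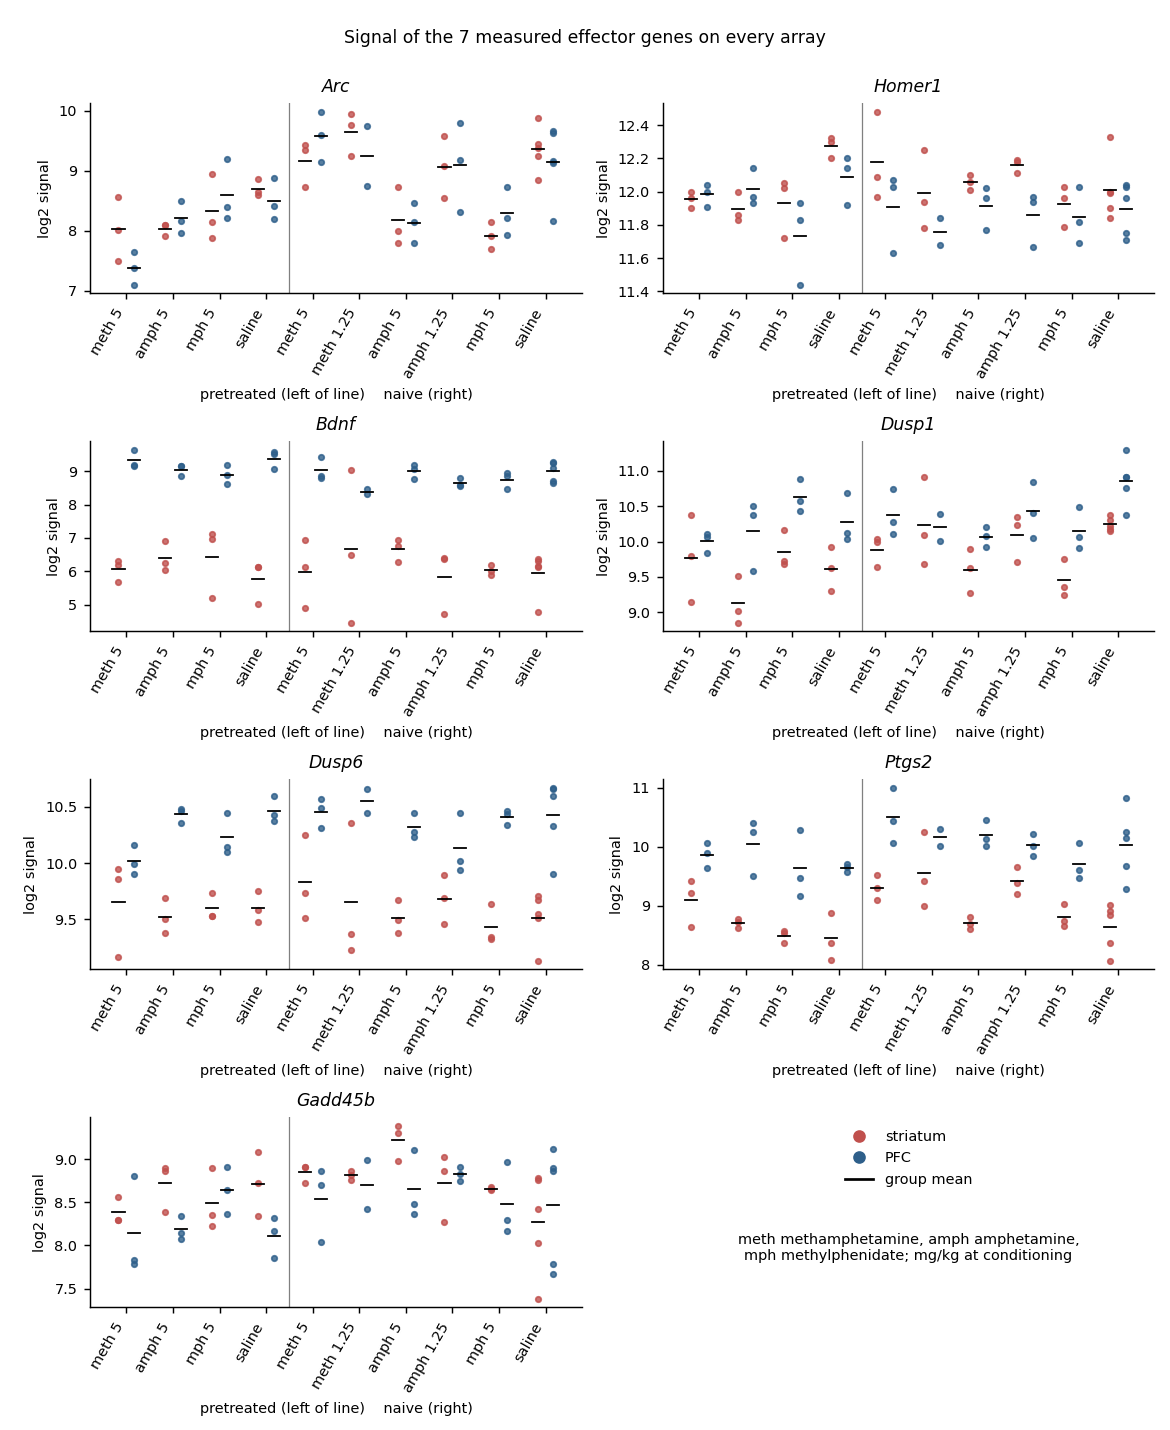
Log2 signal of the 7 measured effector genes on every array (points), with group means (bars), for pretreated groups left of the line and naive groups right of it. Striatal Bdnf points lie below 7.2 except for the array of cortical profile at 9.04, and Arc spreads over 7.10 to 9.98.

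In saline rats the striatum had lower signals of Ptgs2 and Dusp6 than the PFC in both cohorts, and Bdnf lay below the signal filter there, while no difference passed for Arc, Homer1 or Gadd45b. Bdnf had log2 signals of 6.15, 6.12, 4.78, 6.31 and 6.37 in naive saline striatum, against 8.65, 8.72, 9.24, 9.09 and 9.29 in naive saline PFC. In the pretreated cohort it had 6.12, 6.13 and 5.02 in saline striatum, against 9.06, 9.57 and 9.52 in saline PFC. No striatal saline array reached a PFC array. The difference was -3.05 ± 0.42 in the naive and -3.62 ± 0.55 in the pretreated cohort (log2, striatum minus PFC, ± SE). Bdnf entered the fit over both regions only through its PFC signal, so this difference is given as a description with no test, and Bdnf is left out of the counts between regions that follow. Ptgs2 had 8.92, 8.84, 9.01, 8.07 and 8.38 in naive saline striatum, against 9.29, 10.25, 10.83, 9.67 and 10.15 in naive saline PFC. It too was lower on every striatal array, by -1.40 ± 0.22 (limma adjusted p = 8.7e-07), and by -1.20 ± 0.29 in the pretreated cohort (adjusted p = 0.0010). Dusp6, the phosphatase of ERK, had 9.13, 9.55, 9.67, 9.71 and 9.51 in naive saline striatum, against 9.90, 10.33, 10.67, 10.60 and 10.66 in naive saline PFC, again with no overlap. Its difference was -0.92 ± 0.15 in the naive and -0.86 ± 0.20 in the pretreated cohort (adjusted p = 2.5e-06 and 0.0006). The other Dusp6 probe sets, 1387024_at and 1382778_at, were lower in striatum by -0.89 and -0.75 in naive and by -0.71 and -0.81 in pretreated rats (adjusted p of 0.046 or lower over all probe sets).

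Dusp1, which acts on several MAP kinases, had 10.22, 10.15, 10.31, 10.18 and 10.37 in naive saline striatum, against 10.38, 10.92, 11.30, 10.91 and 10.76 in naive saline PFC. The lowest PFC array stood just above the highest striatal array. The difference of -0.60 ± 0.20 passed (adjusted p = 0.0146), but not without PFC saline replicate 3 (-0.49, adjusted p = 0.0635). In the pretreated cohort it was -0.66 ± 0.26 (adjusted p = 0.0535). The other probe sets of Dusp1 (1368147_at, -0.90 and -0.29) and Bdnf (1368678_at, -1.03 and -1.59) lay below the signal filter in both regions. So 3 of the 6 genes other than Bdnf passed as lower in the naive striatum, where 19.7% of the 8819 genes tested did, and 2 of the 6 in the pretreated striatum, where 14.4% did. In either direction 41.3% and 27.9% of genes passed in these cohorts, and none of the 6 passed as higher. For Arc the difference in naive rats was 0.21 ± 0.27 (95% interval -0.33 to 0.75, adjusted p = 0.56), and for Homer1 it was 0.11 ± 0.10 (-0.10 to 0.31, adjusted p = 0.41). Gadd45b differed by -0.19 ± 0.24 in the naive and 0.61 ± 0.31 in the pretreated cohort (adjusted p = 0.54 and 0.14). Bdnf stood at the 60.2 percentile of all genes in the PFC and the 26.4 percentile in the striatum, and its striatal values are given with no filter. Homer1 was the most abundant of the 7, at the 94.3 percentile in the PFC and the 94.9 percentile in the striatum.

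Against saline, averaged over the stimulant groups of a cohort, none of the genes passed in either region. Between 0.0586% and 0.363% of the 8531 genes passed in these comparisons, 0.0586% in naive PFC, 0.0703% in pretreated PFC, 0.0938% in naive striatum and 0.363% in pretreated striatum. At an unadjusted p under 0.05, 1 of 7 genes was counted in naive PFC, 0 of 7 in pretreated PFC, 4 of 6 in naive striatum and 2 of 6 in pretreated striatum. Over all genes 8.73%, 5.45%, 11.5% and 16.2% had such a p, in the same order.

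Arc had log2 signals of 7.69 to 9.95 (median 8.73) on the 15 naive striatal stimulant arrays, against 8.85, 9.38, 9.87, 9.45 and 9.24 on the naive saline arrays. The value of 9.95 was that of the array of cortical profile. The ranges overlapped, and the mean difference was -0.56 ± 0.19 (95% interval -0.95 to -0.18, adjusted p = 0.22). In the pretreated striatum Arc had 7.50 to 8.95 (median 8.09) on 9 stimulant arrays, against 8.86, 8.60 and 8.64 in saline, a difference of -0.57 ± 0.24 (adjusted p = 0.25). In the PFC the differences were -0.28 ± 0.23 in naive and -0.43 ± 0.29 in pretreated rats (adjusted p = 0.74 and 1.00).

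By group, Arc fell in the naive striatum after methylphenidate 5 mg/kg. It had 7.69, 7.92 and 8.15 there, all below every saline array, with a difference of -1.44 ± 0.27, a level 2.71-fold lower than in saline (adjusted p = 0.0209). In that comparison 0.129% of genes passed. The call was kept when 4 of the 8 arrays were left out 1 at a time and lost with 4 (adjusted p of 0.0145 to 0.177). All 3 methylphenidate arrays were of low BioB signal, as were 2 of the 5 saline arrays, and with the BioB level as a block the difference was -1.43 and did not pass (adjusted p = 0.35). The 3′ minus 5′ signal of actin, a measure of RNA quality, was 3.58 to 4.05 on these methylphenidate arrays. In saline it was 2.71 to 2.77 on the arrays of high and 3.54 to 3.80 on those of low BioB signal. The part of RNA quality in the Arc values was not tested. After amphetamine 5 mg/kg Arc had 8.0, 7.80 and 8.72 in the naive striatum, also below every saline array, with a difference of -1.18 ± 0.27 that did not pass (adjusted p = 0.0587). After methamphetamine 5 mg/kg it had 9.34, 9.42 and 8.73 there, 2 of them within the saline range and 1 just below it, with a difference of -0.20.

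The PFC of the same groups had Arc at 7.93, 8.22 and 8.73 after methylphenidate and 8.14, 7.79 and 8.47 after amphetamine 5 mg/kg, against 8.16, 9.13, 9.66, 9.63 and 9.16 in saline. Saline replicate 1 lay among the stimulant arrays, and the differences of -0.86 ± 0.32 and -1.02 ± 0.32 did not pass (adjusted p = 0.25 and 0.30). In pretreated PFC Arc had 7.10, 7.65 and 7.38 after methamphetamine, against 8.88, 8.19 and 8.41 in saline. These groups did not overlap, and the difference of -1.11 ± 0.36 did not pass over all genes (unadjusted p = 0.0040, adjusted p = 1.00).

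These methylphenidate and amphetamine 5 mg/kg arrays were the naive stimulant arrays of low BioB signal. Within that set Arc had 7.69 to 8.72 on the 6 striatal stimulant arrays, against 9.45 and 9.24 on its saline arrays, and 7.79 to 8.73 on the 6 PFC stimulant arrays, against 9.63 and 9.16. The stimulant arrays were below both saline arrays in each region. The differences were -1.30 ± 0.30 in the striatum (adjusted p = 0.64) and -1.19 ± 0.36 in the PFC (adjusted p = 0.74), where 0.0117% and 0.0234% of genes passed. Within the arrays of high BioB signal Arc had 8.54 to 9.95 on 9 striatal stimulant arrays, against 8.85, 9.38 and 9.87 in saline. The 9.95 was on the array of cortical profile. The groups overlapped, with differences of -0.07 ± 0.25 in the striatum and 0.32 ± 0.30 in the PFC, where 1.72% and 0.445% of genes passed. The difference between the sets was -1.22 ± 0.39 in the striatum (unadjusted p = 0.0044, adjusted p = 0.39) and -1.51 ± 0.46 in the PFC (unadjusted p = 0.0031, adjusted p = 0.30). The sets hold different stimulants and doses, so BioB level and stimulant cannot be told apart in this difference. Hbb was at 12.97 to 13.86 on the striatal and PFC stimulant arrays of low BioB signal, against 9.22 to 10.54 on their saline arrays, and its part in the Arc values was not tested.

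**Figure D2:**
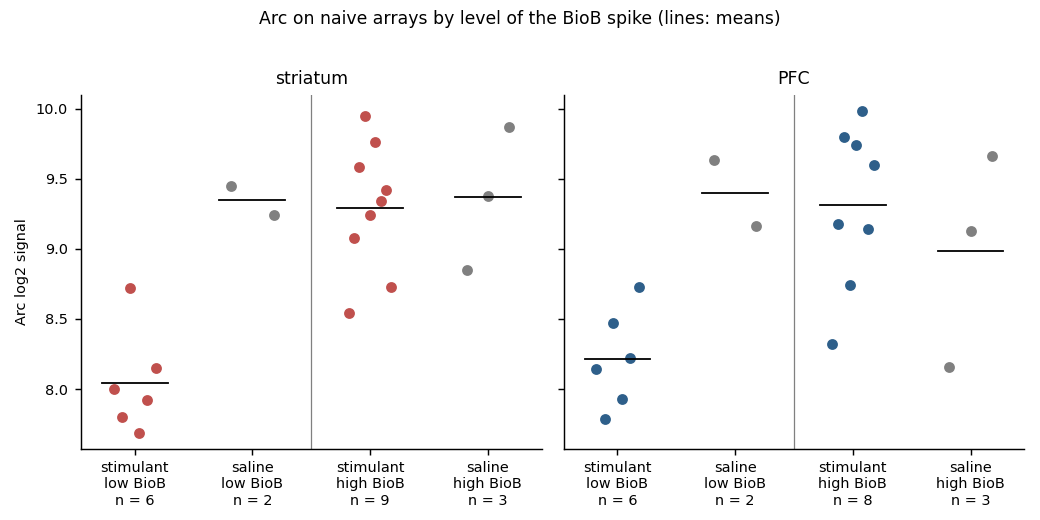
Arc log2 signal on each naive array (points) with group means (lines), split by the level of the BioB spike, striatum left and PFC right. On arrays of low BioB signal the 6 stimulant arrays of each region lie below both saline arrays, and on arrays of high BioB signal the groups overlap. The highest striatal stimulant point, at 9.95, is the array of cortical profile.

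Bdnf fell in the naive PFC after methamphetamine 1.25 mg/kg, the only other call among the single groups. It had 8.46 and 8.32 there, against 8.65, 8.72, 9.24, 9.09 and 9.29 in saline, so both arrays were below every saline array. The difference was -0.61 ± 0.20 (adjusted p = 0.0484) in a comparison that passed 11.1% of genes, and the call was kept when 2 of its 7 arrays were left out in turn and lost with 5. It was also lost with the BioB level as a block (-0.48, adjusted p = 0.15), without the eBayes trend, with no signal filter, with 1 cohort alone and after quantile normalization (adjusted p of 0.053 to 0.073). Over the single groups, 1 of 35 tests passed in naive PFC, where 2.34% of tests over all genes did, and 1 of 30 in naive striatum, where 0.197% did. In the pretreated cohort 0 of 21 passed in PFC, against 0.043% over all genes, and 0 of 18 in striatum, against 0.262%, with 4 and 6 at an unadjusted p under 0.05. Over all genes 3.48 to 7.24% of the tests in the pretreated PFC groups and 8.72 to 16.4% in the striatal groups had such a p. In pretreated PFC Bdnf had 8.61, 8.89 and 9.18 after methylphenidate, against 9.06, 9.57 and 9.52 in saline. The mean difference over the pretreated stimulants was -0.29 ± 0.16 (adjusted p = 0.96). In the striatum Bdnf lay below the signal filter, and its mean differences of 0.29 in naive and 0.54 in pretreated rats had intervals of -0.64 to 1.22 and -0.66 to 1.74. The naive value includes the array of cortical profile, where Bdnf was at 9.04. The second Bdnf probe set, 1368678_at, lay below the filter in both regions and differed by between -0.23 and 0.39.

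**Figure D3:**
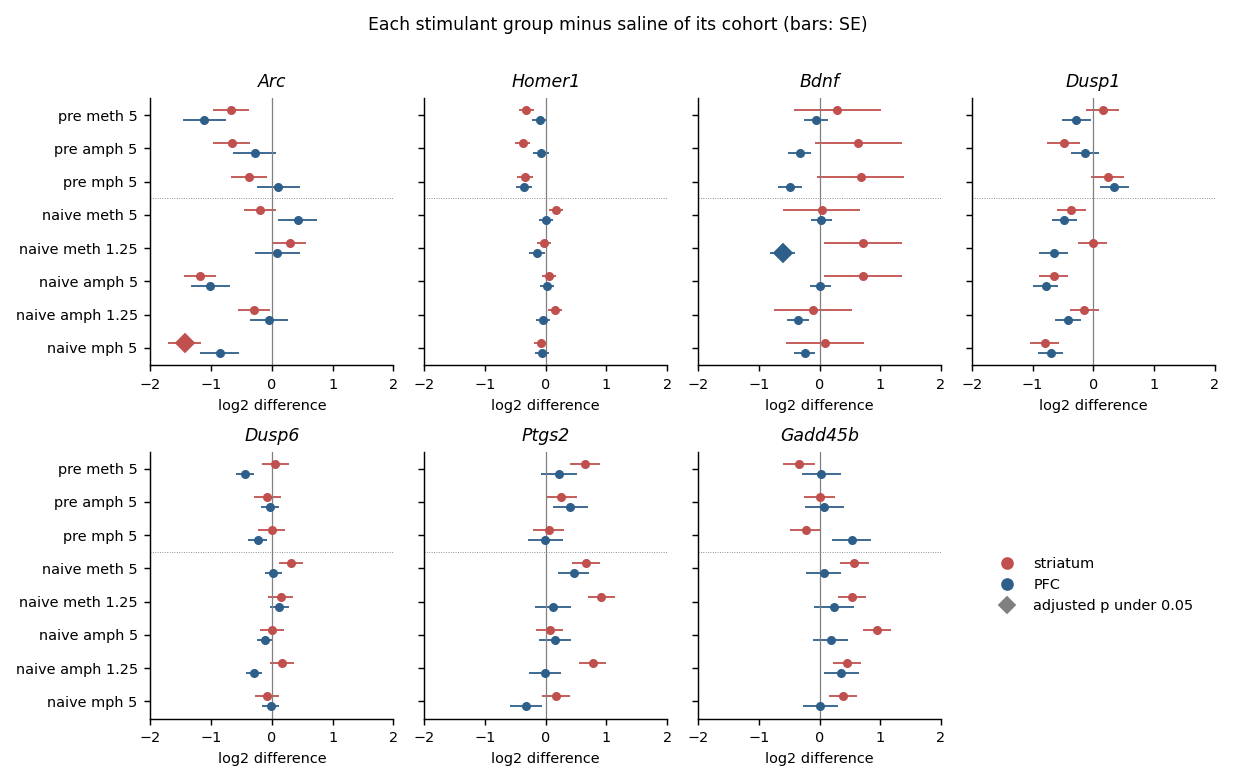
Log2 difference of each stimulant group from the saline group of its cohort (points, with SE as bars) for the 7 genes, striatum and PFC, pretreated groups above the dotted line and naive groups below it. Striatal Bdnf is shown with no filter. Diamonds mark the 2 differences that passed, Arc in naive striatum after methylphenidate (-1.44) and Bdnf in naive PFC after methamphetamine 1.25 mg/kg (-0.61).

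Among the MAP kinase phosphatases Dusp1 had the smallest p of the 7 genes in naive PFC. It had 9.91 to 10.85 (median 10.16) on 14 stimulant arrays, against 10.38, 10.92, 11.30, 10.91 and 10.76 in saline. Saline replicates 1 and 5 lay inside the stimulant range and the other 3 above it. The difference was -0.61 ± 0.15 (unadjusted p = 0.00037, adjusted p = 0.13), and it was -0.72 within the arrays of low BioB signal and -0.53 within those of high BioB signal. In the naive striatum Dusp1 had 9.24 to 10.92 (median 9.75) on 15 stimulant arrays, against 10.15 to 10.37 on 5 saline arrays. Its highest value was that of the array of cortical profile, and the difference of -0.40 ± 0.17 did not pass (adjusted p = 0.35). The pretreated cohort had differences of -0.03 in striatum and -0.02 in PFC. Dusp6 had 9.90, 9.99 and 10.16 in pretreated PFC after methamphetamine, against 10.43, 10.37 and 10.60 in saline. These did not overlap, and the difference of -0.45 ± 0.15 did not pass. Over all stimulants Dusp6 differed by between -0.24 and 0.11 in the 4 comparisons, its probe set 1387024_at by between -0.19 and 0.06 and 1382778_at by between -0.34 and 0.12. The second Dusp1 probe set, 1368147_at, lay below the signal filter and differed by between -0.93 and 0.03.

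Ptgs2 and Gadd45b had higher mean signals than in saline in the naive striatum, and neither difference passed. Ptgs2 had 8.61 to 10.25 (median 9.10) on 15 stimulant arrays, against 8.92, 8.84, 9.01, 8.07 and 8.38 in saline, a difference of 0.52 ± 0.16 (adjusted p = 0.18). The ranges overlapped, and the top value was again the array of cortical profile, without which the difference was 0.45 (adjusted p = 0.15). After methamphetamine 1.25 mg/kg the Ptgs2 difference was 0.92 ± 0.23 with that array (adjusted p = 0.072) and 0.57 without it. Ptgs2 lay above saline in all 8 striatal groups, by 0.05 to 0.92, and in 5 of 8 PFC groups. Groups of a cohort share their saline arrays, so these directions are not separate.

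Gadd45b had 8.27 to 9.39 (median 8.86) on 15 naive striatal stimulant arrays, against 8.03, 8.42, 7.38, 8.78 and 8.76 in saline. The difference was 0.58 ± 0.16 (adjusted p = 0.14). Its largest group value followed amphetamine 5 mg/kg, with 8.98, 9.39 and 9.31 in the striatum, above every saline array, and a difference of 0.95 ± 0.23 (adjusted p = 0.081). These amphetamine arrays were of low BioB signal, as were the saline arrays at 8.78 and 8.76. The lower saline values of 8.03, 8.42 and 7.38 were on arrays of high BioB signal. Within the arrays of high BioB signal the Gadd45b difference was 0.85 ± 0.18 and passed (adjusted p = 0.0161), in a comparison that passed 1.72% of genes, while within those of low BioB signal it was 0.17. Without the array of cortical profile, which is among the 9 stimulant arrays of high BioB signal, it was 0.85 (adjusted p = 0.0162). On these arrays the 3′ minus 5′ signal of actin, a measure of RNA quality, was 2.93 to 3.83 with stimulants, against 2.71 to 2.77 in saline, and the mean of the glucocorticoid-responsive genes was 9.32 to 10.10, against 9.09 to 9.18. Neither overlapped, the cortical marker means were 6.60 to 9.51, against 6.54 to 6.79, and their part in the Gadd45b values was not tested. The difference between the sets was -0.68 (unadjusted p = 0.025). In pretreated striatum the Gadd45b difference was -0.19, and in PFC it was 0.17 in naive and 0.21 in pretreated rats. The naive PFC value averages over the BioB sets, and the difference between the sets there was -1.03 (unadjusted p = 0.011, adjusted p = 0.46). On naive PFC arrays of high BioB signal Gadd45b had 8.04 to 8.99 with stimulants, against 7.67, 7.78 and 8.87 in saline. On those of low BioB signal it had 8.17 to 9.11, against 8.90 and 9.12.

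Homer1 was measured by 5 probe sets that did not move together, and which Homer1 form each reads is not given in the sources used here. The most abundant, 1368318_at, had 11.72 to 12.05 (median 11.96) on the 9 pretreated striatal stimulant arrays, against 12.32, 12.30 and 12.20 in saline. No stimulant array reached a saline array, and the difference of -0.35 ± 0.10 did not pass over all genes (unadjusted p = 0.0024, adjusted p = 0.11). In naive striatum the same probe set differed by 0.05, and the difference of the effects at 5 mg/kg between cohorts, pretreated minus naive, was -0.39 ± 0.14 (adjusted p = 0.15). On these striatal arrays the mean of the cortical markers was 6.74 to 8.21 with stimulants, against 6.08 to 6.96 in saline, and 3 of the 4 cortical markers tested lay above 0 (median difference 1.02). The mean of the striatal markers was 11.59 to 11.91 with stimulants, against 11.93 to 12.13 in saline, and that of the astrocyte markers 12.15 to 12.39, against 11.91 to 12.10, both with no overlap. The part of these markers in the Homer1 values was not tested.

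In the pretreated PFC probe set 1370454_at of Homer1 fell over the 3 stimulants as one group. It had 10.55, 9.62 and 9.64 after methamphetamine, 9.48, 9.96 and 9.82 after amphetamine and 9.85, 9.59 and 9.85 after methylphenidate, against 10.71, 11.30 and 11.38 in saline. All 9 stimulant arrays lay below the 3 saline arrays. The mean difference was -1.31 ± 0.23 (limma adjusted p = 0.0092 over 12500 probe sets, of which 0.096% passed), and no single stimulant group passed (adjusted p of 0.0515 to 0.239). It was kept when 10 of 12 arrays were left out 1 at a time (-1.52 to -1.18), and lost without saline replicate 2 (-1.22, adjusted p = 0.163) or replicate 3 (-1.18, adjusted p = 0.140). In the naive PFC this probe set had 9.53 to 10.96 (median 10.04) on 14 stimulant arrays, against 9.81, 9.76, 10.64, 10.10 and 9.59 in saline. These overlapped with a difference of 0.11, and the pretreated saline arrays were the highest of all PFC saline arrays. The difference of the effects between cohorts, pretreated minus naive at 5 mg/kg, was -1.48 ± 0.30 (unadjusted p = 3.4e-05, adjusted p = 0.193). The most abundant probe set, which stood for Homer1, differed from saline by -0.356 to 0.016 over the 8 PFC stimulant groups. It lay below 0 in 6 of them. Over all stimulants in the pretreated PFC it had an unadjusted p above 0.05 and did not pass. The remaining probe sets differed in the pretreated PFC by -0.73 ± 0.29 (1370997_at, adjusted p = 0.67), 0.05 (1370656_a_at) and 0.22 (1368319_a_at). The means of the striatal markers there were 7.77 to 8.49 on stimulant arrays, against 8.36 to 9.01 in saline, and 10 of the 11 markers tested lay below 0 (median difference -0.41). Their part in the 1370454_at values was not tested.

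Another Homer1 probe set, 1368319_a_at, had 8.53, 7.96 and 8.27 in the pretreated striatum after methamphetamine, against 9.18, 9.07 and 8.82 in saline, with no overlap. The difference of -0.77 ± 0.18 passed (adjusted p = 0.0376), in a comparison that passed 0.8% of probe sets, and the mean over all stimulants of -0.61 ± 0.14 did not (adjusted p = 0.0504). In the naive PFC after methamphetamine 1.25 mg/kg, 1370656_a_at differed by -0.55 ± 0.15 and passed (adjusted p = 0.0311), where 8.23% of probe sets did. By region in saline, 1370454_at was lower in striatum, by -0.80 in naive and -1.60 in pretreated rats (adjusted p = 0.0031 and 2.0e-05). In the pretreated cohort 1370656_a_at and 1368319_a_at were higher there, by 0.45 and 0.57 (adjusted p = 0.045 and 0.043). In these region comparisons 37.6% of probe sets passed in naive and 25.8% in pretreated rats.

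**Figure D4:**
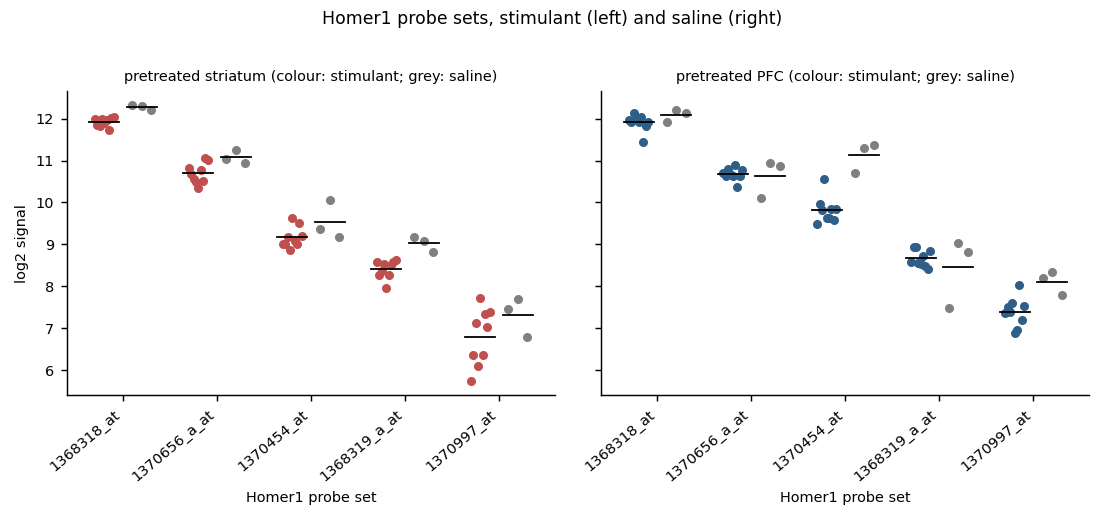
Log2 signal of the 5 Homer1 probe sets on pretreated arrays (points) with group means (lines), striatum left and PFC right, stimulant in colour and saline in grey. In the PFC 1370454_at lies at 9.48 to 10.55 on stimulant arrays and at 10.71 to 11.38 in saline, while 1368318_at overlaps.

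Methamphetamine, the N-methyl form of amphetamine, was compared with amphetamine at matched conditioning doses in 3 pairs a region, naive at 5 and 1.25 mg/kg and pretreated at 5 mg/kg, 6 pairs in all. Arc was higher after methamphetamine in the naive PFC at 5 mg/kg, where it had 9.98, 9.14 and 9.60, against 8.14, 7.79 and 8.47 after amphetamine. The groups did not overlap, and the difference of 1.44 ± 0.36 passed (adjusted p = 0.0419) where 1.45% of genes did. The call was kept when 1 of the 6 arrays was left out and lost with each of the other 5 (1.23 to 1.65). The methamphetamine arrays were of high and the amphetamine arrays of low BioB signal, and with that level as a block the difference was 1.85 ± 0.53 (adjusted p = 0.37). In the striatum it was 0.99 ± 0.30 (95% interval 0.38 to 1.60, adjusted p = 0.080). In this pair and the 1.25 mg/kg pair together, 1 of 14 tests passed in PFC, against 3.86% over all genes, and 0 of 12 in striatum, against 0.791%, with 2 at an unadjusted p under 0.05 (5.54% of all genes at 1.25 mg/kg and 17.9% at 5 mg/kg).

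At 1.25 mg/kg the Arc difference between methamphetamine and amphetamine was 0.14 in PFC (95% interval -0.68 to 0.95) and 0.58 in striatum (-0.03 to 1.19). In the pretreated cohort it was -0.83 ± 0.36 in PFC (adjusted p = 1.00) and -0.01 in striatum (-0.62 to 0.60), and 0.0% of genes passed in either region (2 of 7 and 1 of 6 genes of the set had an unadjusted p under 0.05, against 4.28% and 3.08% of all genes). None of the other genes passed in any pair. At 5 mg/kg in naive rats Ptgs2 differed by 0.60 ± 0.25 in striatum (adjusted p = 0.20) and 0.30 in PFC, Gadd45b by -0.37 and -0.11, Dusp1 by 0.29 and 0.31, Dusp6 by 0.32 and 0.14, Homer1 by 0.12 and -0.01, and Bdnf by -0.68 and 0.02. At 1.25 mg/kg these genes lay between -0.17 and 0.82 in striatum and between -0.25 and 0.42 in PFC, and in the pretreated cohort between -0.35 and 0.64 and between -0.42 and 0.28. The striatal methamphetamine group at 1.25 mg/kg holds the array of cortical profile, which also enters the Arc value of 0.58. The 0.82 was that of Bdnf, which had 9.04 on this array and 6.48 and 4.45 on the others. After amphetamine Bdnf had 4.73, 6.40 and 6.37 there. Of the Homer1 probe sets, 1370997_at in PFC (1.69 ± 0.36, adjusted p = 0.0205) and 1370454_at in striatum (1.05 ± 0.26, adjusted p = 0.0394) passed as higher after methamphetamine 5 mg/kg in naive rats, where 1.27% and 1.61% of probe sets passed. In that striatum 1370454_at had 9.73, 10.45 and 10.31 after methamphetamine, against 8.98, 8.83 and 9.51 after amphetamine, with no overlap. In both regions these methamphetamine arrays were of high and these amphetamine arrays of low BioB signal. The Homer1 calls here therefore compare arrays that differ in BioB signal as well as in stimulant.

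Between 5 and 1.25 mg/kg no gene of the set passed with limma, where 3.53% of tests over all genes passed in PFC and 0.838% in striatum. At an unadjusted p under 0.05 there was 1 of 7 genes in PFC for either stimulant, and 2 of 6 for amphetamine and 0 of 6 for methamphetamine in striatum. Over all genes the shares were 25.4% (amphetamine) and 15.7% (methamphetamine) in PFC, and 19% and 5.15% in striatum, so the PFC counts did not stand above all genes. For amphetamine Arc was at 8.14, 7.79 and 8.47 in PFC at 5 mg/kg, against 8.32, 9.18 and 9.80 at 1.25 mg/kg. A single array of the higher dose lay above the lowest array of the other dose, and the difference was -0.97 ± 0.36 (adjusted p = 0.086). In striatum Arc had 8.0, 7.80 and 8.72 at 5 mg/kg, against 8.54, 9.08 and 9.58 at 1.25 mg/kg, again with 1 array overlapping and a difference of -0.89 ± 0.30 (adjusted p = 0.11). The amphetamine doses lay on arrays of different BioB signal. For methamphetamine the Arc difference was 0.33 in PFC and -0.49 in striatum. Bdnf in PFC differed by 0.64 ± 0.22 between the methamphetamine doses (adjusted p = 0.24). Ptgs2 in striatum differed by -0.71 ± 0.25 between the amphetamine doses (adjusted p = 0.13), and by -0.25 between those of methamphetamine. The remaining values of Ptgs2, Gadd45b, Dusp1, Dusp6, Homer1 and Bdnf lay between -0.68 and 0.83 in striatum and between -0.37 and 0.37 in PFC. The -0.68 was that of Bdnf between the methamphetamine doses. All striatal values between these doses hold the array of cortical profile in the 1.25 mg/kg group. Arc was at 9.95 and Ptgs2 at 10.25 on it. Bdnf was at 9.04 on it and at 6.48 and 4.45 on the others, against 4.89, 6.12 and 6.93 at 5 mg/kg.

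The effects at 5 mg/kg did not pass as different between cohorts for any of the genes, where 0.0117% of genes passed in PFC and 0.0586% in striatum (unadjusted p under 0.05 for 1 of 7 and 2 of 6, against 4.47% and 16.8% of all genes). The largest differences, pretreated minus naive, were -0.82 ± 0.27 for Gadd45b in striatum (adjusted p = 0.14) and 0.63 ± 0.25 for Dusp1 in PFC (unadjusted p = 0.017, adjusted p = 1.00). The naive side of these differences holds both BioB sets, with amphetamine and methylphenidate on arrays of low BioB signal. For Gadd45b in striatum the lowest naive saline values, 8.03, 8.42 and 7.38, were on arrays of high BioB signal. The stimulant effect did not pass as different between regions for any of the 7 genes or any other gene (0.0% of 8819), and none of the 7 had an unadjusted p under 0.05 in either cohort (6.34% of all genes in naive and 5.11% in pretreated rats).

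Arc varied together in the 2 regions on arrays of the same group and replicate number. Each value was taken as the array's distance from its group mean, and the labels do not say whether a number marks the same rats. Over 31 pairs Pearson's r was 0.63 (permutation p = 0.0042 with values shuffled within groups, 0.029 adjusted over the 7 genes) and Spearman's rho 0.56 (permutation p = 0.012, adjusted p = 0.083). Without the 2 PFC values farthest from the median r was 0.53. Without the array of cortical profile r was 0.72 (permutation p = 0.00032, adjusted p = 0.0022) and rho 0.65. It was 0.56 over 19 naive pairs (permutation p = 0.052) and 0.83 over 12 pretreated pairs (permutation p = 0.0076, adjusted p = 0.049). Within the naive pairs r was 0.80 over 8 of low and 0.50 over 11 of high BioB signal, where it was 0.07 without the 2 farthest. The median over 8243 genes was 0.15, and Arc stood at the 98.2 percentile. Over the 31 pairs Dusp6 had 0.43, Dusp1 0.31, Ptgs2 0.26, Gadd45b 0.20, Bdnf 0.13 and Homer1 -0.01, none of which passed over the 7 genes. In the 12 pretreated pairs Dusp1 passed as well, with r = 0.67 (permutation p = 0.014, adjusted p = 0.049). Its rho there was 0.80 (permutation p = 0.0055, adjusted p = 0.021), and its r over the 19 naive pairs was 0.02.

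**Figure D5:**
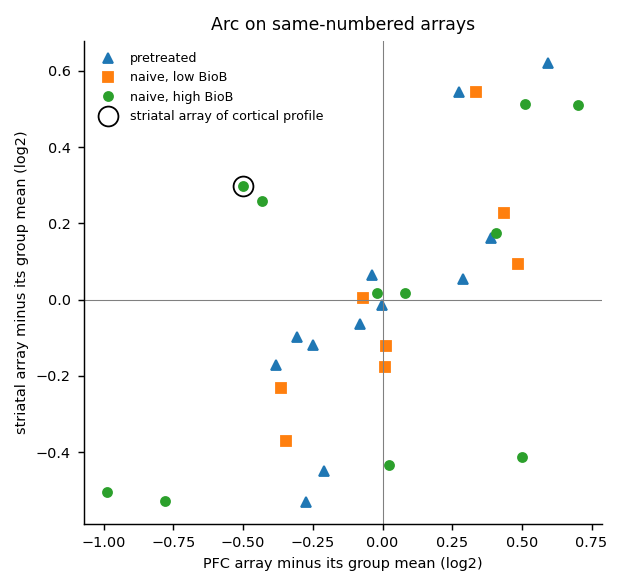
Arc on same-numbered arrays, each as its distance from the group mean in log2, striatum on the vertical and PFC on the horizontal axis, for 31 pairs by cohort and BioB level. Most pairs lie in the lower left and upper right, and the circled pair holds the striatal array of cortical profile.

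The genes whose distances from the group means followed Arc most closely were inducible transcription factors, taken as a description over 31 PFC and 32 striatal arrays. In PFC they were Nr4a1 (r = 0.80), Fos (0.80) and Egr2 (0.79), and in striatum Nr4a1 (0.85), Egr4 (0.82) and Egr1 (0.75). The other 6 genes had other nearest genes, though some of them also followed these factors. In PFC Dusp1 had r = 0.74 with Egr1 and 0.72 with Nr4a1. Ptgs2 had 0.70 with Egr1 and with Egr2, and Dusp6 had 0.68 with Egr2. Homer1, Bdnf and Gadd45b had at most 0.43 there with Fos, Egr1, Egr2 or Nr4a1. In striatum the highest such value for a gene other than Arc was 0.57 (Dusp6 with Fos). Dusp1 was nearest Matn2 (0.76) and Mcl1 (0.74) in PFC, Ptgs2 nearest Nog (0.88) and Slitrk1 (0.87), and Dusp6 nearest Rnf111 (0.91). Homer1 was nearest Atl1 (0.84) in PFC and Ubtd2 (0.75) in striatum, and Gadd45b was nearest Stk39 (0.81) in PFC and Mrpl3 (0.83) in striatum. In striatum Bdnf was nearest Fam81a (0.92) and Cck (0.91), where the array of cortical profile is among the 32.

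Related genes were taken from 5 lists, and none of their members passed in the 4 comparisons of all stimulants with saline, with the genes of smallest p named here. The 15 inducible transcription factors had median differences of -0.16 in naive and -0.12 in pretreated PFC, and of 0.02 in naive and 0.06 in pretreated striatum. Fos, which pairs with Jun in AP-1, differed by -0.57 ± 0.25 in naive and -1.05 ± 0.32 in pretreated PFC (adjusted p = 0.52 and 0.37), and Ier2 by -0.43 in naive PFC. Cebpb differed by 0.42 in pretreated PFC and 0.63 in naive striatum, Klf6 by 0.38 in naive striatum, and Cebpd and Egr1 by 0.77 and -0.39 in pretreated striatum. Of 19 other activity-induced effectors the medians lay between -0.15 and 0.14. Among them Nptx1, a neuronal pentraxin, differed by 0.80 and Inhba, an activin subunit, by 0.40 in naive striatum, and Plk2, a kinase of synaptic scaling, by -0.38 in pretreated striatum. In naive PFC Gadd45g differed by -0.33 and Gadd45a by -0.24, and in pretreated PFC Vgf differed by -0.41.

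The synaptic partners of the effector proteins (27 tested in PFC, 26 in striatum) and the regulators of induction (17 and 16) had medians between -0.03 and 0.01, and the medians of all genes lay within 0.013 of 0. Ntrk2, the receptor of BDNF, differed by 0.49 ± 0.14 in pretreated striatum (adjusted p = 0.093), with Camk2a, the synaptic calcium kinase, at 0.37. In naive striatum Sh3gl3, an endophilin of the family that Arc binds, differed by -0.35 ± 0.08 (adjusted p = 0.11) and Gria2, an AMPA receptor subunit, by 0.21. In PFC the partners of smallest p were Dlg4 (-0.18) and Itpr1 (0.07) in naive rats and Itpr1 (0.11) and Shank3 (-0.17) in pretreated rats. Creb1, which binds the cAMP response element, differed by 0.37 in naive and 0.37 in pretreated PFC (adjusted p = 0.37 and 0.74), beside Hdac5 at 0.22 and Mef2a at -0.15. In striatum Camk4 differed by -0.21 in naive and -0.45 in pretreated rats, Mef2c by 0.28 in naive and Crtc1, a CREB coactivator, by 0.46 in pretreated rats.

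The 13 genes that respond to glucocorticoids had medians of 0.13 in naive and 0.65 in pretreated striatum, and of 0.02 in naive and 0.49 in pretreated PFC. In pretreated striatum 13 lay above 0 and 10 had an unadjusted p under 0.05, and in pretreated PFC 12 lay above 0 and 8 had one. Over all genes 52.7% and 53.5% lay below 0, and 16.2% and 5.45% had an unadjusted p under 0.05. Sgk1, a kinase in that list and in the effector list, differed by 1.02 in pretreated striatum and 1.08 in pretreated PFC. Mt2A differed by 1.13 and Tsc22d3 by 0.65 in pretreated striatum, and Angptl4 by 0.88 and Per1 by 0.53 in pretreated PFC. In naive rats Tsc22d3 differed by 0.39 and Sult1a1 by 0.81 in PFC, and Fkbp5 by 0.33 and Sult1a1 by 1.03 in striatum. The naive medians average over the BioB sets. On naive arrays of high BioB signal the mean of the glucocorticoid-responsive genes was higher with stimulants, with no overlap. It was 9.192 to 9.976 in PFC, against 8.724 to 8.932 in saline, and 9.324 to 10.1 in striatum, against 9.094 to 9.177. On arrays of low BioB signal it overlapped and averaged lower with stimulants, at 9.216 against 9.583 in PFC and 9.497 against 9.793 in striatum. The part of these genes in the Homer1 and Arc values was not tested.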

How the data were processed

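RNA of 63 tissue samples was hybridised to Affymetrix rat arrays. The authors' deposited values are linear intensity per probe set, made with MAS5 per the submitters' processing notes (version not given in the sources used here), and the trimmed mean was 500.1 to 500.2 on every array, so a difference in total RNA cannot be seen. Values under 1 were set to 1 (18232 values) and log2 was taken. Probe sets were named from the platform annotation (20832 with 1 symbol, 436 with several, 9831 with none), and coordinates and promoters are from RefSeq. The 40% of genes of lowest signal in a region were left out. Differences were tested with limma 3.58.1 (R 4.3.3; a mean for each group, eBayes with a trend) over 8531 genes, or 8819 for fits over both regions, with 21 (PFC), 22 (striatum) and 43 residual degrees of freedom. P-values were adjusted by Benjamini-Hochberg, with 0.05 as threshold. The genes, lists and tests were chosen with earlier results of these data known. The measured genes are given in most comparisons, some by the range of their values. For the rest only the outcome of the test is given, and for the region difference of stimulant effects only counts. Other probe sets are given in the comparisons with saline and between regions. Nearest genes were taken by residual correlation and list members by smallest p. A gene entered the fit over both regions if it passed the filter in either. Alternatives were normalization, filter, trend, cohort, BioB level, replicate block, all probe sets and leaving out each array. The scripts were tested on simulated data.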

Additional observations from a re-analysis of the deposited data

Results flagged for a closer look

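The values of 7 genes in the 2 saline groups of 5 arrays gave 14 sets, and in 1 of them an array lay far from the others. Bdnf in naive saline striatum was 4.78 on replicate 3, against 6.12 to 6.37 on the other 4 arrays. The gap was 0.843 of the group's range, against a critical value of 0.71. Chance sets apart about 1 in 20 such sets. Bdnf lay below the signal filter in the striatum.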

How the results depend on the processing

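The counts of genes that passed changed as follows. Of single groups over saline in naive PFC (1 gene), 0 passed with the BioB level as a block, within either BioB level, without the eBayes trend, with no filter, with 1 cohort alone and after quantile normalization, and 0 to 2 when single arrays were left out. In naive striatum (1), 0 passed with the BioB block, within either BioB level and with a filter of 60%, which left Arc out of the test, and 0 to 3 with single arrays left out. For methamphetamine over amphetamine in naive PFC (1), 0 passed with the BioB block, a filter of 60% (Arc again left out), no filter, 1 cohort alone and within high BioB, 2 with all probe sets, and 0 to 1 with single arrays left out. With all probe sets 1 passed, against 0, in single groups of pretreated striatum, in pretreated PFC over all stimulants and for methamphetamine over amphetamine in naive striatum. In naive striatum over all stimulants 1 passed within high BioB, also without the array of cortical profile (1; chosen after seeing the data). For 5 over 1.25 mg/kg in naive PFC 0 to 1 passed, and for striatum over PFC in saline 3 to 4 (with Bdnf) in either cohort, with single arrays left out. The cause was not tested.

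Same-numbered arrays of the 2 regions correlated with a median of 0.20 (31 pairs, -0.55 to 0.51), stimulant with saline arrays with 0.03 (47 pairs), and arrays of the 2 regions with different numbers with -0.10 (72 pairs). Of the same-numbered pairs 23 of 31 were over 0.1, against 14 of 72. The labels do not say that a number marks the same rats, and not every pair was over 0.1, so the numbers were not taken as pairs. With the replicate block 2 genes passed in single groups of naive PFC and 3 in naive striatum, 1 over all stimulants in naive PFC and in naive striatum, 2 for methamphetamine over amphetamine in naive PFC and 1 in the striatal cohort difference. With it, Dusp1 in pretreated saline passed between regions (-0.66, adjusted p = 0.0188), 4 of 7 genes with Bdnf against 3. For single genes in the means over all stimulants and between regions, and the 3 calls in single groups and between methamphetamine and amphetamine, 932 values were recomputed. Of these 884 kept their side of the threshold, 10 that had not passed moved by over 1 SD, 9 passed newly and 29 no longer passed, and 30 that had not passed changed sign. The number of arrays limits the precision, and striatal Bdnf lay below the signal filter.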
